A study of Mus musculus with 8 samples.

Results

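The genes described are 4 Janus kinases (Jak1, Jak2, Jak3 and Tyk2) and 5 STAT transcription factors (Stat3, Stat4, Stat5a, Stat5b and Stat6). They were found by the symbol that RefSeq gives to the accession of each array probe, and each gene was read from its brightest probe. These 9 genes stand among 20883 genes with a matched probe, of which 13183 were bright enough to be tested. All 9 were well above background on 8 of 8 arrays.

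Janus kinases are bound to the inner tails of cytokine receptors, and they phosphorylate each other, the receptor and STAT proteins when a cytokine pairs the receptor chains. Phosphorylated STAT proteins enter the nucleus and switch on target genes, among them SOCS genes whose products damp the same receptors. In blood formation Jak2 serves the erythropoietin receptor among others and acts largely through Stat5a and Stat5b, and JAK2V617F is the activated form found in myeloproliferative neoplasms.

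The groups were MEP (megakaryocyte and erythroid progenitors) and LSK cells (without lineage markers, with c-Kit and Sca-1 on the surface, which include the stem cells), each from marrow of JAK2V617F/Ezh2Δ/Δ (the double mutant), JAK2V617F, Ezh2Δ/Δ and WT donors. All donor marrow, WT included, carried Cre-ERT2, the tamoxifen-inducible recombinase, on a C57BL/6 background, and was grown in lethally irradiated wild-type CD45.1+ hosts. The floxed Ezh2 gene, which encodes the histone H3 methyltransferase of polycomb complex PRC2, was deleted 4 weeks after transplantation, and cells were sorted from the hosts at 2 months. The sources used here give neither the promoters that drive Cre-ERT2 and JAK2V617F, nor a donor gate in the sort, nor the number of animals behind a sample. For every group, 20 ng of total RNA was amplified, labelled with Cy3 and hybridised to 1 array, 8 arrays in all.

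With 1 array a group, each effect is the mean of 4 differences between matched arrays, and its p-values measure the spread between these arrays, which includes any interaction of cell type and genotype. Levels are log2 signal less the 75th percentile of the array, so a level of 0 is that percentile, and levels of different probes are not set against each other. The share of probes well above background was 39.8% to 48.8% by array, and no spot was saturated. The 8 arrays lie on 1 slide with the cell type as row and the genotype as column, so position and group cannot be told apart. Xist had levels of 1.57 to 2.99 where Ezh2 was deleted and of -3.07 or less where it was intact, and the Y-linked Eif2s3y ran the other way, at -6.08 to -4.80 on Ezh2-deleted and 2.53 to 3.55 on intact arrays. The Ezh2 deletion and the sex of the marrow therefore cannot be told apart in any result. The level of Ezh2 itself was 3.57 in double-mutant MEP against 4.23 in JAK2V617F MEP, 4.04 in Ezh2Δ/Δ MEP against 4.14 in WT MEP, 3.59 in double-mutant LSK against 3.83 in JAK2V617F LSK, and 3.36 in Ezh2Δ/Δ LSK against 3.50 in WT LSK. Where its probe lies relative to the deleted part is not given, so these levels do not check the labels.

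The first comparison asked how the kinases and STAT factors differ between the erythroid and megakaryocytic progenitors and the stem cell fraction. Jak3, Stat3 and Stat4 were lower in MEP than in LSK cells by 3.06-fold to 6.53-fold, Jak2 was 1.49-fold higher, and Jak1, Tyk2, Stat5a, Stat5b and Stat6 did not pass the threshold of 0.05 on the adjusted p. The count was 4 of 9 genes, beside 39.9% of all genes tested, so a call in this comparison was common. By direction 3 of 9 were lower, beside 20.1% of all genes, and 1 of 9 was higher, beside 19.8%. The median of all genes was a log2 fold change of 0.12. In sorted bulk cells, fewer cells of one type and less RNA per cell cannot be told apart.

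Jak3, the kinase of receptors that use the common gamma chain, had levels of -0.31, 0.39, -0.02 and 0.07 in MEP of the double mutant, JAK2V617F, Ezh2Δ/Δ and WT, against 2.50, 2.40, 2.92 and 2.88 in LSK cells of the same 4 genotypes. Every MEP array lay below every LSK array. The difference was a log2 fold change of -2.64 (SE 0.20, adjusted p = 4.85e-05 by limma), or 6.24-fold lower in MEP. The dimmer Jak3 probe gave -2.42.

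Stat4, which in lymphocytes carries the interleukin-12 signal, stood at -0.39, 0.56, -0.11 and -0.16 in MEP of the double mutant, JAK2V617F, Ezh2Δ/Δ and WT, against 2.27, 2.27, 2.99 and 3.21 in LSK cells. The MEP and LSK levels again did not overlap. It was 6.53-fold lower in MEP (log2 fold change -2.71, SE 0.27, limma adjusted p = 0.000207).

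Stat3, the main factor downstream of the gp130 receptors and of the granulocyte colony-stimulating factor receptor, had levels of 2.23, 2.65, 2.33 and 2.44 in MEP against 3.97, 3.77, 4.19 and 4.16 in LSK cells, in the same order of genotypes. Its groups did not overlap either, and it was 3.06-fold lower in MEP (log2 fold change -1.61, SE 0.17, limma adjusted p = 0.000279). A second, dimmer Stat3 probe, above background on 6 of 8 arrays, gave -1.42. Groups without overlap and lower in MEP were thus seen for 3 of 9 genes, beside 17% of all genes tested.

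Jak2 had levels of 2.51, 3.36, 3.07 and 3.24 in MEP of the double mutant, JAK2V617F, Ezh2Δ/Δ and WT, against 2.21, 2.34, 2.59 and 2.72 in LSK cells. It was higher in MEP in 4 of 4 genotype pairs, beside 30.7% of all genes, but the ranges overlapped through the double-mutant MEP array, which lay below the Ezh2Δ/Δ and WT LSK arrays. The log2 fold change was 0.58 (SE 0.18, 95% interval 0.16 to 1.00, limma adjusted p = 0.0353), and it was 0.47 with quantile normalization, which moved the median of all genes by -0.11. The call was lost on leaving out any 1 array other than double-mutant MEP, where the adjusted p ran up to 0.109. Whether the Jak2 probe reads the JAK2V617F transcript is not given in the sources used here.

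Stat5a leaned the same way as Jak2 without passing the threshold. Its levels were 3.29, 4.39, 4.08 and 4.29 in MEP of the double mutant, JAK2V617F, Ezh2Δ/Δ and WT, against 3.27, 3.40, 3.44 and 3.85 in LSK cells, higher in MEP in 4 of 4 pairs (log2 fold change 0.52, SE 0.19, limma adjusted p = 0.0649). Without the double-mutant MEP array, which lay 0.79 below the next MEP array, the log2 fold change was 0.68 with an adjusted p of 0.0219. Its neighbour and close relative Stat5b averaged 3.92 ± 0.46 in MEP and 3.82 ± 0.28 in LSK cells (SD, n = 4 each), a log2 fold change of 0.10 (SE 0.19, limma adjusted p = 0.692) that turned to -0.08 with quantile normalization and to -0.06 without the JAK2V617F MEP array.

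The remaining members differed by less than their errors allowed to call. Jak1, the kinase shared by interferon, gp130 and gamma chain receptors, averaged 4.19 ± 0.46 in MEP and 4.36 ± 0.30 in LSK cells. Tyk2, which serves type I interferon and interleukin-12 receptors, averaged 0.45 ± 0.46 in MEP and 0.25 ± 0.28 in LSK cells. Stat6, which carries the interleukin-4 signal, averaged 0.75 ± 0.44 in MEP and 1.11 ± 0.31 in LSK cells (SD, n = 4 each). The log2 fold changes were -0.17 (95% interval -0.66 to 0.32) for Jak1, 0.19 (-0.25 to 0.64) for Tyk2 and -0.36 (-0.77 to 0.06) for Stat6. Stat6 was called without the JAK2V617F MEP array (log2 fold change -0.51, limma adjusted p = 0.0276).

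**Figure D1:**
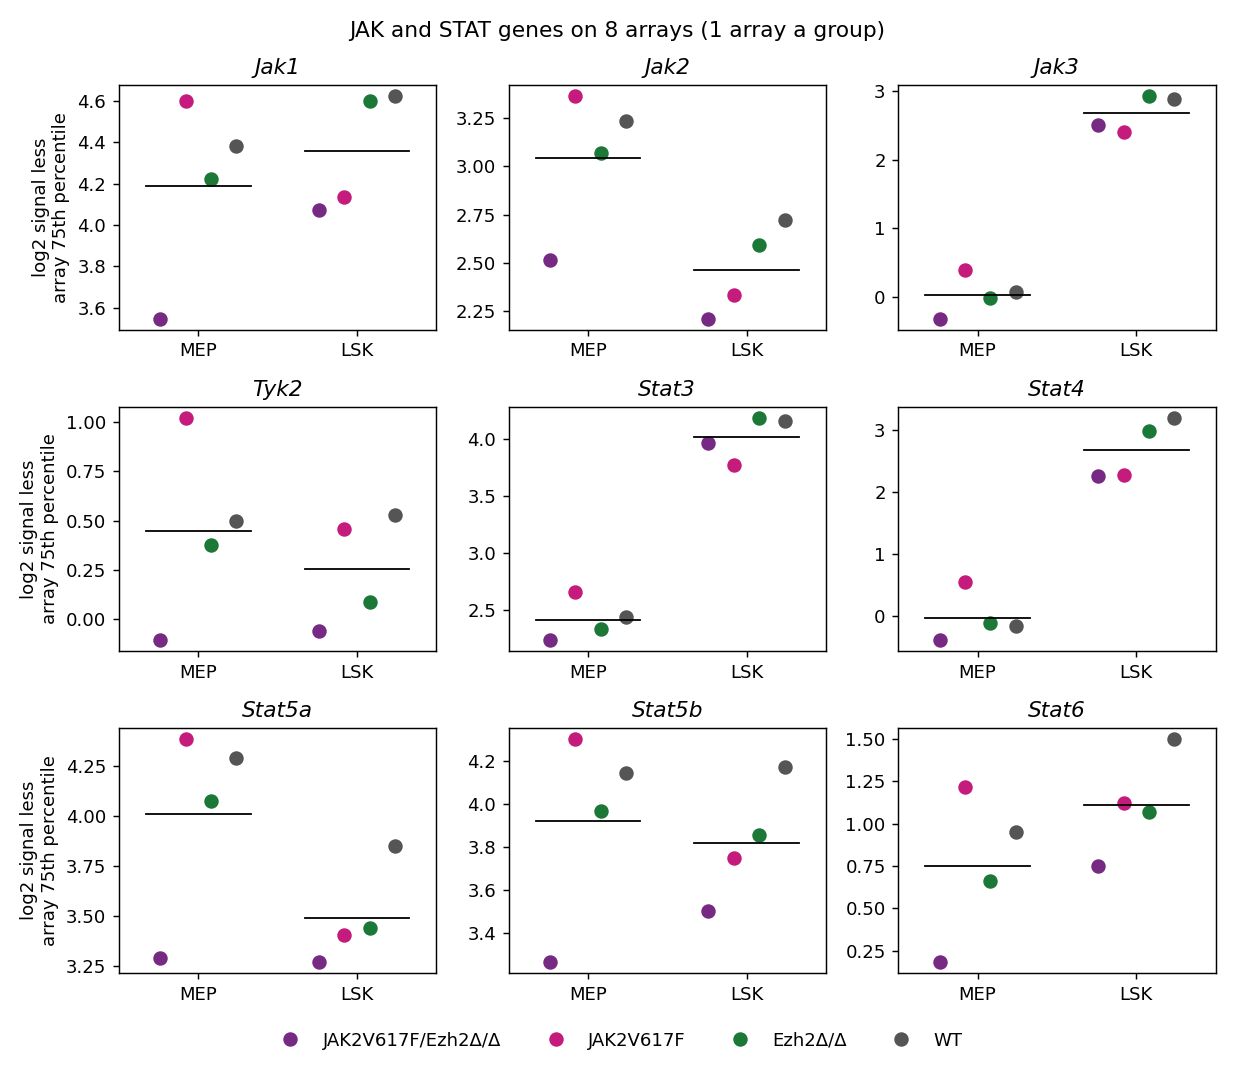
Level of each gene (y axis, log2 signal less the 75th percentile of the array) on the 8 arrays, with MEP left of LSK and 1 coloured point per genotype; the line is the mean of 4 arrays. Jak3, Stat3 and Stat4 lie lower on all 4 MEP arrays than on all 4 LSK arrays. The double-mutant MEP array is the lowest MEP array for all 9 genes. Of all genes tested, 62.2% were lower on it than in JAK2V617F MEP, 61.5% than in Ezh2Δ/Δ MEP and 62.9% than in WT MEP. The share of all genes lowest on this MEP array was not counted.

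The order of the 8 levels shows where neighbours part by more than the residual SD of the fit, which was 0.24 to 0.39 for the 9 genes. For Jak3, Stat3 and Stat4 the widest gap lay between the lowest LSK and the highest MEP array, at 2.01, 1.12 and 1.71. For Jak1 a single gap exceeded the residual SD, the 0.53 between double-mutant LSK and double-mutant MEP, the lowest array. For Stat5b no neighbours parted by more than the residual SD.

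Markers checked the sorted fractions. Stem cell markers had all 8 of 8 genes above background on each LSK array, against 4 or 5 of 8 on MEP arrays, and summed levels were 10.8 to 23.4 in MEP against 52.3 to 110 in LSK cells, in units of the 75th percentile. Erythroid markers summed to 334 to 640 in MEP against 10.8 to 28.1 in LSK cells. For T and NK cells, in which Jak3 and Stat4 are well known, 3 or 4 of 9 markers were above background in MEP and 3 to 7 of 9 in LSK cells. Their sums were 32.7 to 54.6 in MEP and 46.9 to 121 in LSK cells, and Cd3g and Eomes were not well above background on any array. Nkg7, the brightest of them, carried these sums, with a level of 4.71 in WT MEP against 6.09 in WT LSK, while Cd3e (1.79 in WT MEP against 1.07 in WT LSK) and Cd4 (2.54 against 2.13) ran the other way, as they did in the other genotypes except JAK2V617F. Granulocyte markers summed to 22.8 to 288 in MEP and 385 to 1835 in LSK cells, carried by Mpo and Elane. The other 5, S100a8, S100a9, Camp, Ngp and Ltf, were higher in MEP than in LSK cells of every genotype, for example S100a8 at 1.57 in WT MEP against 0.29 in WT LSK. The part of these markers in the differences was not tested.

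Promoter windows are shown for 3 of the 4 genes called between the cell types, Jak2, which was higher in MEP, and Jak3 and Stat3, which were lower. RefSeq windows (GRCm38.p6) matched all 9 genes, and motifs were searched in the 250 bases before a start in all 12 windows. For Stat3 the stretch printed is 196 of these bases. The capitals mark each GC box (GGGCGG) or CCAAT box (CCAAT), read on both strands, so CCGCCC and ATTGG are the same boxes on the other strand. The Jak2 window is chr19:29251553-29251802 on the plus strand, the Jak3 window chr8:71676133-71676382 on the plus strand, and the Stat3 window chr11:100939595-100939790 on the minus strand.
Jak2: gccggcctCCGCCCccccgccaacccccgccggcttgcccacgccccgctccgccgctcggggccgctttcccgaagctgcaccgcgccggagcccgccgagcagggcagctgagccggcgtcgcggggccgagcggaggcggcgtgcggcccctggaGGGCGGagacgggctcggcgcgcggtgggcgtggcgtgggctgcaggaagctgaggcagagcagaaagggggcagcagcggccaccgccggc
Jak3: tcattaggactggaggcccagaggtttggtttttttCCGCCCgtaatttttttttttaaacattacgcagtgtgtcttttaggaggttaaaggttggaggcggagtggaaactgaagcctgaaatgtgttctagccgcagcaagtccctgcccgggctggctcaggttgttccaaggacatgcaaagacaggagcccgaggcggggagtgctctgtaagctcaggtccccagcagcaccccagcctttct
Stat3: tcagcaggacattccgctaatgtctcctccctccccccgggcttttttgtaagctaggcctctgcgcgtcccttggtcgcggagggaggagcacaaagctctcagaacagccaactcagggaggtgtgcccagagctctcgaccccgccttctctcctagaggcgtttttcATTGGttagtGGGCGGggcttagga
A GC box was found in 7 of 12 windows (Jak1, Jak2, Jak3, Stat3, Stat5a, Stat5b and Tyk2), against 32.7% of 32851 windows of all genes, and a CCAAT box in 4 of 12 (Jak1, Stat3, Stat4 and Tyk2), against 33.8%. Of the 4 called genes, Jak2, Jak3 and Stat3 held a GC box, and Stat4, whose 2 windows are not printed, held a CCAAT box and no GC box. The STAT motif TTCNNNGAA was in 0 of 12 windows, against 7.02% of all windows, and the erythroid GATA motif AGATAA was in 0 of 12, against 9.99%. These matches describe letters in the windows and nothing about binding.

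Stat5b, Stat5a and Stat3 are neighbours on chromosome 11. The Stat5a and Stat5b windows share a run of 16 bases near their starts, in capitals. No other pair was searched for a shared run, and no link of the run to the levels was tested. The stretches are chr11:100860445-100860474 on the plus strand for Stat5a and chr11:100822571-100822600 on the minus strand for Stat5b.
Stat5a: tttgaggAGGAAATCGCTGCTCTctgctcc
Stat5b: ttttagaAGGAAATCGCTGCTCTttgcttc
With the mean of each cell type taken off, levels of Stat5a and Stat5b correlated at a Pearson r of 0.987 over the 8 arrays. Over the 36 pairs of the 9 genes r ran from 0.515 (Tyk2 and Stat3) to 0.990 (Jak1 and Jak2). The share of all gene pairs with an r above 0 was not counted, so this range cannot be called particular to these genes. The arrays share slide, genotype and scaling, so these values are descriptions.

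The second comparison asked what JAK2V617F does to the transcripts of its own pathway. No member passed the threshold. The count was 0 of 9 genes by limma, beside 0.326% of all genes tested, and 0 of 9 had an unadjusted p under 0.05. All 9 log2 fold changes were below 0, at -0.37 to -0.04, beside a median of 0.01 over all genes, though Stat3 turned to 0.02 when all its probes were averaged. Jak2 itself averaged 2.61 in JAK2V617F-carrying arrays and 2.90 in those without it, a log2 fold change of -0.30 (SE 0.18, limma adjusted p = 0.602).

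The pairs of arrays did not run alike. In LSK cells all 9 genes were lower in both pairs, as were 29.4% of all genes tested: by 0.07 (Tyk2) to 0.93 (Stat4) in JAK2V617F LSK against WT LSK, and by 0.14 (Tyk2) to 0.72 (Stat4) in double-mutant LSK against Ezh2Δ/Δ LSK. With the mean of all probes of a gene, 8 of 9 were lower in JAK2V617F LSK than in WT LSK. In MEP the directions opposed each other. All 9 were higher in JAK2V617F MEP than in WT MEP (50.4% of all genes), by 0.09 (Stat5a) to 0.72 (Stat4), and all 9 were lower in double-mutant MEP than in Ezh2Δ/Δ MEP (61.5% of all genes), by 0.10 (Stat3) to 0.79 (Stat5a); with quantile normalization, and likewise with the mean of all probes, 8 of 9 were lower in that last pair. With the levels as reported 12.8% of all genes showed the whole 4-pair pattern. It was read off the 9 members themselves, so their 9 of 9 was set in advance and the share is a description. Single pairs have 1 array on each side and no test.

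Stat4 differed most between the cell types. Within LSK cells it stood at 2.27 and 2.27 with JAK2V617F (double mutant and JAK2V617F), against 2.99 and 3.21 without (Ezh2Δ/Δ and WT). That is a log2 fold change of -0.83 (SE 0.30, limma adjusted p = 0.254), against 0.22 (SE 0.30, adjusted p = 0.874) within MEP. Within each cell type 0 of 9 members passed, beside 0.159% of all genes in either. The test of the difference gave 1.05 (SE 0.42, unadjusted p = 0.0483, limma adjusted p = 0.435), which does not pass. For the difference of the JAK2V617F effect between MEP and LSK, 0 of 9 members and 0% of all genes passed by limma, with 1 member and 1511 genes at an unadjusted p under 0.05.

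Cell type markers differed in the same LSK pairs. Stem cell markers summed to 57.7 in double-mutant LSK against 102 in Ezh2Δ/Δ LSK, and to 52.3 in JAK2V617F LSK against 110 in WT LSK. Granulocyte markers summed to 669 in double-mutant LSK against 385 in Ezh2Δ/Δ LSK and to 1835 in JAK2V617F LSK against 576 in WT LSK, with 5 to 7 of 7 above background. Their part in the lower LSK levels was not tested.

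**Figure D2:**
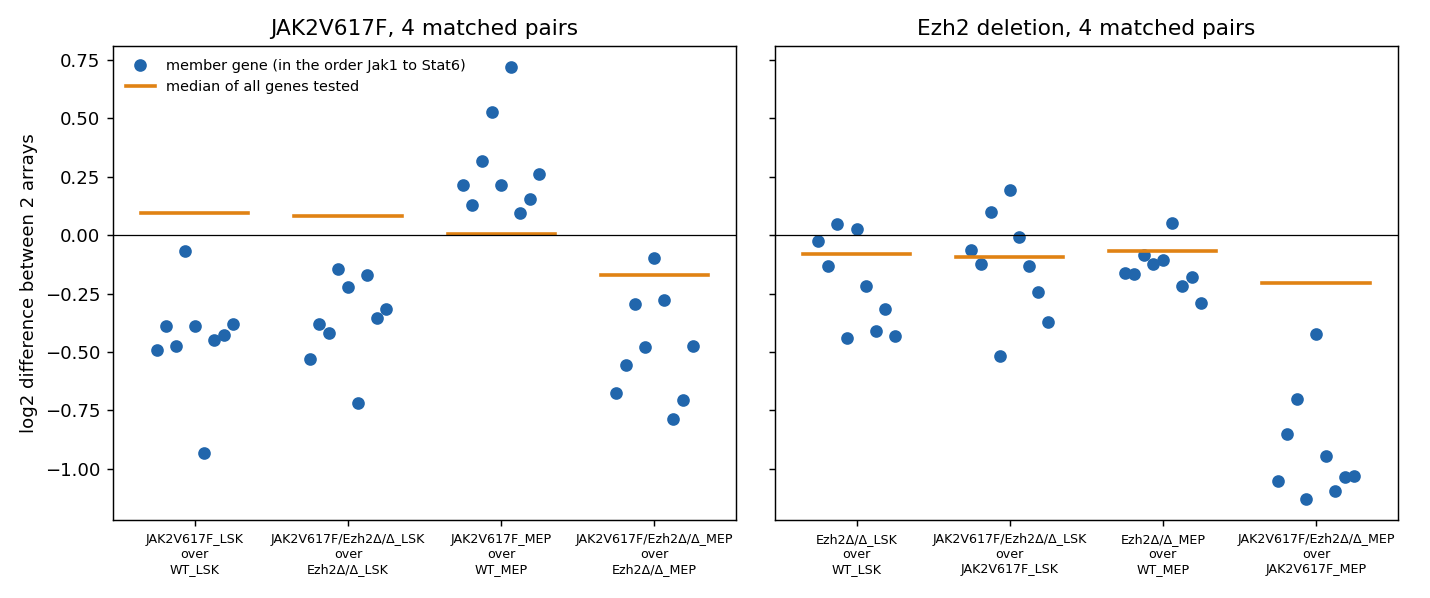
Log2 difference between 2 arrays (y axis) for each of the 9 genes, from Jak1 to Stat6 within a pair, for the 4 JAK2V617F pairs (left) and the 4 Ezh2 deletion pairs (right); the orange line is the median of all 13183 genes. All 9 genes lie above 0 in JAK2V617F MEP over WT MEP and below 0 in the other JAK2V617F pairs (8 of 9 with quantile normalization in double-mutant MEP over Ezh2Δ/Δ MEP, and 8 of 9 with the mean of all probes in that pair and in JAK2V617F LSK over WT LSK), and they lie lowest in double-mutant MEP over JAK2V617F MEP, with a median of -1.03.

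The third comparison asked what loss of Ezh2 does to these genes. Again no member passed, 0 of 9 by limma beside 0.705% of all genes tested. All 9 log2 fold changes were below 0, at -0.55 to -0.08, beside a median of -0.11 over all genes, though Stat3 turned to 0.06 with quantile normalization. At an unadjusted p under 0.05 there were 4 members, Tyk2 (log2 fold change -0.55, SE 0.19), Stat6 (-0.53, SE 0.18), Stat5a (-0.46, SE 0.19) and Stat5b (-0.44, SE 0.19), with limma adjusted p of 0.231 to 0.275, and 2373 genes in all. Jak1, Jak2, Tyk2, Stat5a, Stat5b and Stat6 were lower in 4 of 4 pairs, a share of 6 of 9 beside 27% of all genes. In double-mutant LSK over JAK2V617F LSK the number of members below 0 was 7 of 9, and 4 of 9 with quantile normalization.

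The differences were far from equal over the pairs. In double-mutant MEP against JAK2V617F MEP all 9 genes were lower, with a median log2 difference of -1.03 beside -0.20 over all genes. Jak1 (-1.05), Tyk2 (-1.13), Stat5a (-1.10), Stat5b (-1.04) and Stat6 (-1.03) were at least 2-fold lower, 5 of 9 beside 7.8% of all genes, while Jak2 differed by -0.85, Stat4 by -0.94, Jak3 by -0.70 and Stat3 by -0.42. In the other 3 Ezh2 pairs no member was 2-fold lower, beside 1.82% of all genes in Ezh2Δ/Δ LSK over WT LSK, 1.86% in double-mutant LSK over JAK2V617F LSK and 2.28% in Ezh2Δ/Δ MEP over WT MEP. The members' medians in these pairs were -0.22, -0.12 and -0.16 log2. In Ezh2Δ/Δ MEP against WT MEP the 9 differences ran between -0.29 (Stat6) and 0.05 (Stat4).

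The size of that single-array difference depended on scaling and probe. All 9 stayed below 0 with quantile normalization, but 1 of 9 was then at least 2-fold lower, beside 6.65% of all genes. Normexp background correction left 2 of 9, beside 3.25% of all genes. The members' medians were -0.80 with quantile normalization and -0.78 with normexp. The second Jak3 probe gave -1.28, the second Stat5b probe -1.04 and the second Stat6 probe -1.03, while the dimmest Stat6 probe gave -0.14 and the second Stat3 probe 0.14. Erythroid markers summed to 334 in double-mutant MEP against 504 in JAK2V617F MEP and granulocyte markers to 288 against 166, and 44.1% of probes were above background in double-mutant MEP against 41.1% in JAK2V617F MEP. Their part in the lower levels was not tested.

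The test of whether the Ezh2 effect depends on JAK2V617F passed for 0 of 9 members and for 0% of all genes by limma (441 genes and 0 members at an unadjusted p under 0.05). The member with the lowest p was Tyk2, at -0.54 (SE 0.36, limma adjusted p = 0.970). The Ezh2 effect in MEP less that in LSK cells passed for 0 of 9 members and for 0.00759% of all genes, and was -0.57 (SE 0.39, adjusted p = 1.00) for Jak1, the member with the lowest p. B cell markers summed to 48.7 in Ezh2Δ/Δ MEP against 2.56 in WT MEP and to 62.2 in Ezh2Δ/Δ LSK against 16.8 in WT LSK, with Ebf1 above background on both Ezh2Δ/Δ arrays and on neither WT array. With JAK2V617F they summed to 6.66 in double-mutant MEP against 3.23 in JAK2V617F MEP and to 21.0 in double-mutant LSK against 22.2 in JAK2V617F LSK. Their part in the Ezh2 differences was not tested.

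Set directly against WT, the double mutant was lower for all 9 genes in both cell types, with 1 array on each side. Of all genes, 50.1% were lower in LSK cells and 62.9% in MEP. In MEP the double mutant was lower for 8 of 9 with quantile normalization and for 8 of 9 with the mean of all probes. In LSK cells the median log2 difference was -0.58 beside -0.00 over all genes, and Stat4 (-0.94) and Stat6 (-0.75) differed most. In MEP the median was -0.72 beside -0.23, and Stat5a was the 1 member at least 2-fold lower, beside 6.22% of all genes. These pairs share their arrays with the pairs above.

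**Figure D3:**
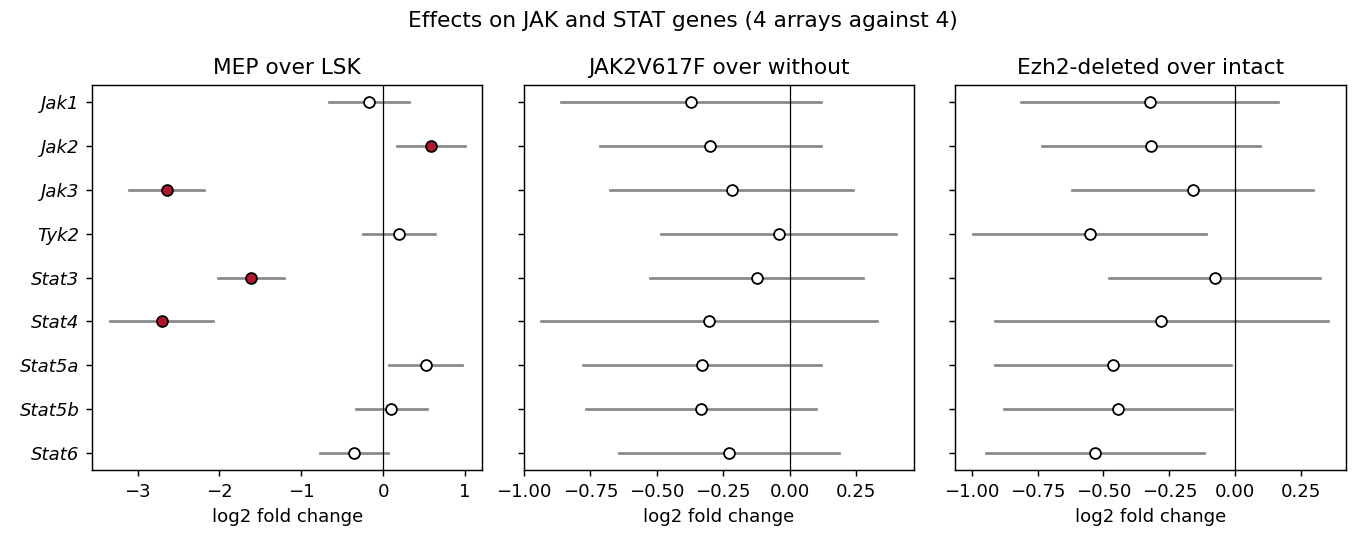
Log2 fold change (x axis) with its 95% interval for each gene from the additive fit, 4 arrays against 4, for MEP over LSK, JAK2V617F over without, and Ezh2-deleted over intact; filled points have a limma adjusted p under 0.05 and the axes differ in range. Jak2, Jak3, Stat3 and Stat4 are filled in MEP over LSK, and no gene is filled for either genotype.

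Around the kinases, more of the receptor genes that recruit them were lower than higher in MEP. Of 31 tested receptor genes 21 were lower and 2 higher by limma, beside 20.1% and 19.8% of all genes, and the median log2 fold change was -1.13 beside 0.12 over all genes. Among the 17 receptor genes above background on all arrays 12 were lower and 2 higher. Of the genes called among all 10475 so filtered, 61.4% were higher. Of the 21 lower genes, Il10ra, Il7r, Il5ra and Prlr were above background on 0 of 4 MEP arrays, so they could pass the filter only through LSK cells. Il10ra, an interleukin-10 receptor chain, was not well above background on any MEP array and averaged -4.81 in MEP against 0.72 in LSK cells, at least 11.8-fold lower. Csf2rb, the common beta chain of the interleukin-3, interleukin-5 and GM-CSF receptors, averaged -0.96 in MEP, where 3 of 4 arrays were above background, and 3.52 in LSK cells. Il21r, the interleukin-21 receptor, and Il6st, which encodes gp130, were above background on 1 of 4 MEP arrays each. The 2 higher genes, named after their values were seen, were the erythropoietin receptor Epor (log2 fold change 4.53) and the interferon gamma receptor chain Ifngr1 (1.15).

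Of 23 regulators 10 were lower and 1, Cish, was higher in MEP, beside 20.1% and 19.8% of all genes, with a median of -0.40. Socs3, the inhibitor of gp130 signalling, fell by 2.71 on the log2 scale, the phosphatase Ptprc (CD45) by 1.74, Socs1 by 1.21 and the adaptor Sh2b3, which restrains Jak2, by 1.22. Of 23 STAT target genes 14 were lower and 2 higher, beside the same shares of all genes, with a median of -1.15. Besides Socs3, the called genes with the lowest p were Bcl6 (-1.96), the cytokine gene Osm (-1.95) and the cyclin gene Ccnd1 (-1.86). The 2 higher target genes, named after their values were seen, were the transferrin receptor Tfrc (2.68) and Cish (0.72). The Cish call was lost with quantile normalization (limma adjusted p = 0.0583) and on leaving out any of 6 arrays.

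With JAK2V617F, 1 gene of the 3 lists was called, Socs2, a feedback inhibitor of growth hormone and Stat5 signalling that stands in both the regulator and the target list. Its levels were 1.48 and 1.39 in double-mutant and JAK2V617F MEP, against -0.78 and -1.94 in Ezh2Δ/Δ and WT MEP. In LSK cells they were 2.90 and 2.18 in the double mutant and JAK2V617F, against 0.34 and -0.90 in Ezh2Δ/Δ and WT. Every JAK2V617F-carrying array lay above every array without it, and the log2 fold change was 2.81 (SE 0.21, limma adjusted p = 0.0120), or 7.01-fold. The call was lost without the double-mutant MEP array (2.99, limma adjusted p = 0.0720) and with 1 shared floor for low signals (adjusted p = 0.144).

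No receptor gene was called for JAK2V617F. Csf2rb2, the interleukin-3 beta chain of mice, averaged 1.00 on JAK2V617F-carrying arrays, 4 of 4 above background, and -0.87 on those without it, 2 of 4 above background (log2 fold change 1.87, limma adjusted p = 0.0788). With dim values raised to the lowest signal above background the log2 difference was 1.40, and with normexp background correction it was 0.97 and passed (limma adjusted p = 0.0107). For the Ezh2 deletion 0 genes of the 3 lists were called by limma. The lowest p in each list belonged to Il5ra (adjusted p = 0.149) and Ghr (0.93, 0.157) among receptors, Cish (0.86, 0.135) and Socs2 (0.80, 0.166) among regulators, and Cish and Myc (-0.86, 0.156) among targets. Il5ra was above background on 2 of 4 Ezh2-deleted and 1 of 4 intact arrays, so no fold is given. Ghr was above background on 4 of 4 Ezh2-deleted and 2 of 4 intact arrays, and its log2 difference was 0.82 with dim values raised to the lowest signal above background. Cish, another Stat5 feedback inhibitor, stood at 4.82 in double-mutant MEP, 4.42 in JAK2V617F MEP, 4.14 in Ezh2Δ/Δ MEP and 3.60 in WT MEP.

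**Figure D4:**
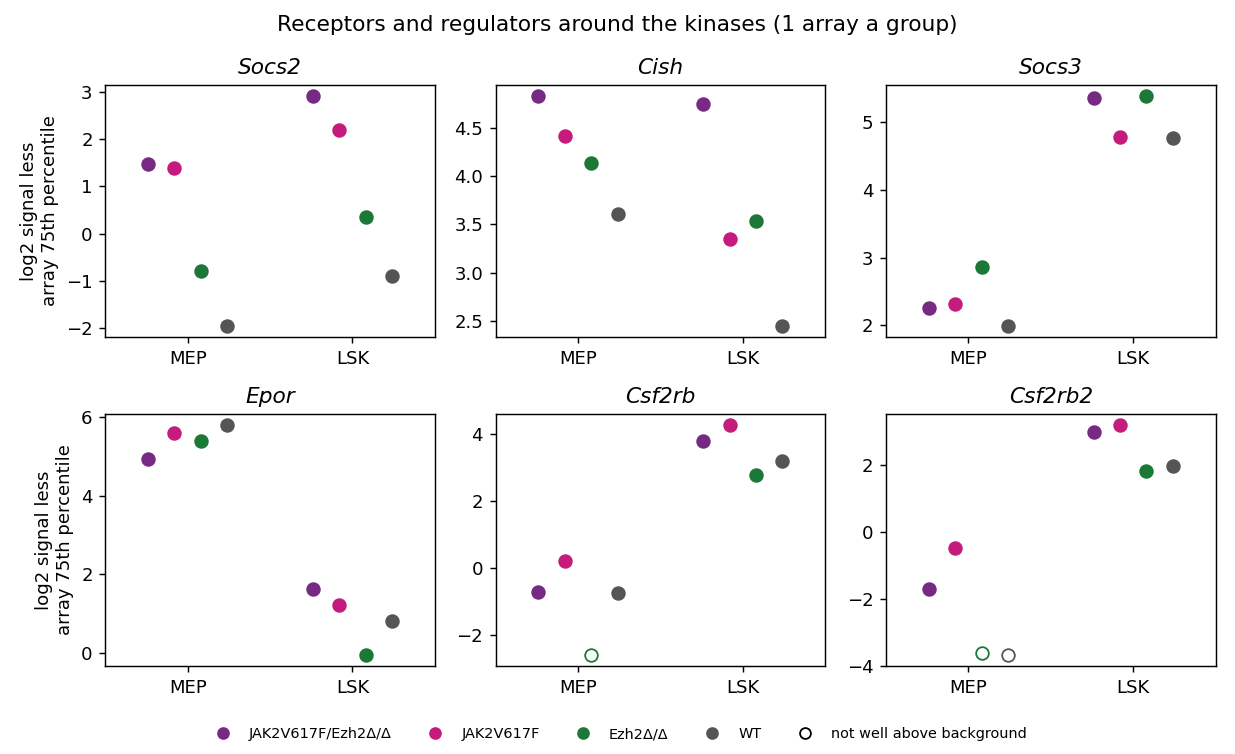
Levels (y axis, log2 signal less the 75th percentile of the array) of 3 SOCS family genes and 3 receptor genes on the 8 arrays, MEP left of LSK, 1 coloured point per genotype; open circles were not well above background. Socs2 is higher on all 4 JAK2V617F-carrying arrays than on the 4 others, and Socs3 is lower on all 4 MEP arrays than on the LSK arrays.

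Genes whose levels ran most like a member were found by the Pearson r over 8 arrays of levels less the mean of their cell type, among 10474 other genes above background on all arrays. The nearest were Casd1 (0.997) and Nop53 (0.994) for Jak1, Sfxn3 (0.999) and Wiz (0.998) for Jak2, and Antxr2 (0.987) and Kctd10 (0.985) for Jak3. For Tyk2 they were Pole (0.996) and Ppp2r1a (0.995). For the STAT genes they were Ercc5 (0.994) and Cnst (0.988) for Stat3, Pkd1 (0.983) for Stat4, Ebag9 (0.998) and Hnrnpul2 (0.996) for Stat5a, Tmem164 (0.997) and Arhgap4 (0.996) for Stat5b, and Gpatch2l (0.995) and Msl1 (0.995) for Stat6. An r above 0.9 was common, shared with 1.13% (Stat3) to 8.54% (Stat5b) of the genes compared.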

How the data were processed

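The scanner files as deposited hold spot intensity values; per the file headers, Agilent Feature Extraction 10.7.1.1 subtracted the background and did not normalize between arrays. The authors' deposited series table holds a linear ratio, which the values show to be the processed signal over a number per array close to the 75th percentile. Of 55681 probes, 27503 (49.4%) matched a RefSeq gene. Spots of a probe were averaged, leaving out non-uniform ones. Levels are log2 of that mean less log2 of the array's 75th percentile. Each gene is represented by its brightest probe and was tested where that was well above background on at least 2 of 8 arrays. Effects were fitted over all 13183 genes with limma 3.58.1 in R 4.3.3 (cell type, JAK2 and Ezh2 as additive terms; nested and interaction terms for differences between effects), with Benjamini-Hochberg adjustment and a threshold of 0.05. The fits were tested on simulated data. Members, gene lists, markers and the rule for named genes (up to 4 called list genes by lowest p, otherwise 2) were chosen with earlier results of these data known. Some genes that the rule picks are left out here. No group has a replicate, and the number of arrays limits the precision. Alternatives changed background correction, normalization, filter, floor, probe choice, variance prior and threshold, took genotype as a block, and left out each array.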

Additional observations from a re-analysis of the deposited data

How the results depend on the processing

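Arrays could not be paired by replicate, because each group holds replicate 1 alone. The MEP and LSK arrays do pair by genotype: with genotype as a block, a fit chosen after seeing the data, 4 of 9 members and 4833 genes were called in MEP over LSK, and each member kept its direction and its side of the threshold, Jak2 at an adjusted p of 0.0457. Of 9 members, 3 to 5 were called between MEP and LSK over all settings, and 0 for either genotype or any difference between effects. Jak3, Stat3 and Stat4 kept their calls and direction in MEP over LSK under every setting. Jak2 was 0.43 to 0.69 over the 8 fits without an array, with adjusted p of 0.0249 to 0.109. The direction of small effects turned. Stat5b in MEP over LSK was -0.083 with quantile normalization and -0.063 to 0.23 without an array. The JAK2V617F effect on Stat3 was 0.017 with the mean of all probes, and that on Tyk2 -0.20 to 0.087 without an array. The Ezh2 effect on Stat3 was 0.064 with quantile normalization, 0.17 with the mean of all probes and -0.19 to 0.054 without an array. On Jak3 it was -0.28 to 0.032 and on Stat4 -0.49 to 0.017 without an array. The cause was not tested.

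Counts over all genes moved more. JAK2V617F called 43 genes, but 92 with normexp, 27 with quantile normalization, 139 among genes above background on all arrays, 18 with no filter, 0 with a common floor (1431 at an unadjusted p under 0.05 in the fit as reported), 126 with a trended prior, 119 at 0.10 and 0 (without double-mutant MEP; 3 without JAK2V617F MEP) to 59 without an array. The Ezh2 deletion called 93, but 32 with quantile normalization, 51 with no filter, 10 with a common floor, 187 with a trended prior, 228 at 0.10 and as few as 12 without an array (double-mutant MEP). MEP over LSK called 5258, and 9632 with no filter. The difference in JAK2V617F effect between cell types called 0 genes, and 25 among genes above background on all arrays; that in the Ezh2 effect called 1, and 6 with quantile normalization, 11 at 0.10 and 0 with normexp, with a common floor or under either other filter; the dependence of the Ezh2 effect on JAK2V617F called 0, and 13 with normexp, 9 among genes above background on all arrays and 5 with a trended prior. Fits without an array called 0 to 140 genes for the first of these tests, 0 to 132 for the next and 0 to 38 for the last. The fits between cell types then keep 1 residual degree of freedom. Without an LSK array limma gave these fits a single variance for all genes (median degrees of freedom 13183). Only such fits between cell types called any gene, so their counts rest on that pooling. Slide as a block was not run, as there is 1 slide, and normexp used the median spot signal. The 9 members were above background on all arrays. In double-mutant MEP over JAK2V617F MEP normexp left 2 of 9 at least 2-fold lower, beside 3.25% of all genes. As reported these were 5 of 9 and 7.8%.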
